A study of Homo sapiens with 44 samples.

Results

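The baseline expression of U937 cells was compared with that of 3 other human acute myeloid leukemia (AML) lines, HL-60, THP-1 and MOLM-14. The comparison used the 3 U937 arrays and the 9 arrays of the other lines that were infected with a scrambled control hairpin, 12 of 44 arrays in all, and each of the other lines carried equal weight. The remaining 32 arrays came from the same 4 lines infected with 1 of 4 hairpins, a pair against GSK3A and a pair against GSK3B. All cells grew in RPMI medium with serum, all were infected with a hairpin construct, and puromycin at 1 µg/mL was added 48 h after infection. RNA was taken after a further 48 h and hybridised to Affymetrix high-throughput human genome arrays. The control cells of every line therefore carried the scrambled hairpin and the drug selection as well. Each line stems from 1 patient, so the 3 arrays of a line measure the spread between samples of that line and not the spread between leukemias. The labels call the replicates biological and say nothing of separate cultures or infections.

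U937 is a line of monocytic character from a histiocytic lymphoma and carries the PICALM-MLLT10 fusion. HL-60 is a promyelocytic line with extra copies of MYC. THP-1 and MOLM-14 are monocytic lines with the KMT2A-MLLT3 fusion, and MOLM-14 also carries an internal tandem duplication in the receptor gene FLT3. Fusions of both types are known to drive the HOXA genes and their partner MEIS1 in leukemia. Such fusions and copy-number changes are background here and were not measured. In a bulk culture, fewer cells that express a gene and less RNA per cell cannot be told apart.

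The deposited values were intensities of probe sets on a linear scale, with array medians between 21.0 and 21.2 in the U937 control arrays and between 19.6 and 22.8 in the others. A level is given below as this intensity, which can be compared between arrays of 1 probe set but not between probe sets. A difference is given on the log2 scale after 16 was added to each intensity and the arrays were quantile-normalised, which makes differences of dim genes smaller than the ratio of the intensities. Across 12165 genes, Pearson's r between U937 control arrays was 0.990 to 0.999. It was 0.941 to 0.950 between U937 and HL-60, 0.937 to 0.941 between U937 and MOLM-14 and 0.921 to 0.922 between U937 and THP-1. U937 replicate 3 stood apart from its group, with a root mean square deviation of 0.181 (log2). The other U937 control arrays had 0.101 and 0.103, and the arrays of the other lines had 0.056 to 0.142. Replicate 3 of each line was in plate column 7, with replicates 1 and 2 in columns 1 and 2. A comparison without U937 replicate 3 thus lacks the U937 control array of columns 7 to 11. Each line filled 1 row of the hybridisation plate, so line and plate row cannot be told apart. The 3′ over 5′ ratio of the GAPDH control probe sets, a sign of RNA quality, was between -0.08 and 0.06 (log2) in U937, against 0.19 to 0.40 in HL-60, 0.20 to 0.32 in THP-1 and -0.06 to 0.77 in MOLM-14. The same ratio for ACTB was 0.47 to 0.85 in U937, 0.96 to 1.64 in HL-60, 0.63 to 0.66 in THP-1 and 0.63 to 1.56 in MOLM-14. With the hairpin arrays included, the ACTB ratio of U937 was 0.42 to 0.56 in plate columns 1 to 6. It was 0.78 to 0.91 in columns 7 to 11. The GAPDH ratio of MOLM-14 was -0.06 to 0.005 in columns 1 to 6 and 0.77 to 1.69 in columns 7 to 11. The part of plate row and RNA quality in the differences below was not tested.

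The marker genes of the cell types were checked first. The pan-leukocyte phosphatase PTPRC was well measured in U937, at 567 ± 19.4 (SD, n = 3), and the signalling adaptor FCER1G reached 456 ± 107. Of the monocyte markers, the lipopolysaccharide co-receptor CD14 at 7.82 ± 0.89, the growth factor receptor CSF1R at 11.6 ± 1.58 and the scavenger receptor CD163 at 7.75 ± 0.23 were all below the median of the U937 arrays. ITGAM, the alpha chain of the complement receptor, was above that median at 101 ± 12.6, and the Fc receptor gene FCGR1A reached 168 ± 112. Of the granule proteases of granulocytic precursors, ELANE stood at 3606 ± 1574 and CTSG at 6397 ± 2539, while MPO, the peroxidase of the same granules, was below the median at 11.4 ± 0.82. The myeloid transcription factor SPI1 was close to the median at 20.7 ± 1.7. The defining genes of T and NK cells (CD3D, CD3E, CD2, GNLY), of B and plasma cells (MS4A1, CD79A, PAX5), of erythroid cells (HBB, ALAS2) and of megakaryocytes (PF4, GP9, ITGA2B) had U937 means of 7.02 to 16.4, all below the array median. CD33 and LYZ were not analysed here. U937 thus had signal for part of the leukocyte, granule and monocyte markers, with MPO, CD14, CSF1R and CD163 dim.

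U937 differed from the mean of the other lines in 860 genes (7.07% of 12165 tested), of which 431 were higher in U937 (3.54%) and 429 were lower (3.53%). A gene was called where the adjusted p-value of limma was under 0.05 after Benjamini-Hochberg adjustment over all genes and the difference was at least 2-fold. On the adjusted p alone, 5687 genes (46.7%) passed, so the fold limit set the size of these lists. The median difference over all genes was -0.008. Against HL-60, 541 genes were higher in U937 (4.45%) and 371 lower (3.05%). Against THP-1, 706 were higher (5.8%) and 804 lower (6.61%), and against MOLM-14, 546 were higher (4.49%) and 566 lower (4.65%). These 3 comparisons share the U937 arrays. In 1269 genes (10.4%) all U937 control arrays lay above the range of the 9 others, and in 1189 (9.77%) below it, at any size of difference. A mean over lines can be moved by 1 line, so a stricter call asked for a 2-fold difference from each of the 3 lines in 1 direction, tested with the largest of the 3 p-values. By it 160 genes (1.32%) were higher in U937 than in every other line and 117 (0.962%) were lower. By the same rule THP-1 had 249 higher and 160 lower genes, HL-60 had 79 and 127, and MOLM-14 had 107 and 44. Without U937 replicate 3, 166 genes lay above every other line and 138 below.

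The gene with the largest positive difference, GPNMB, encodes a lysosomal glycoprotein of macrophages and pigment cells. Its intensities were 1704, 1626 and 2370.2 in U937, against 19.8, 19.9 and 25.4 in HL-60, 175, 139 and 137 in THP-1 and 25.8, 22.5 and 18.6 in MOLM-14. No U937 array came within the range of the other lines, a condition for the choice of these genes, and THP-1 was the nearest line. The difference was 4.89 ± 0.17 (SE, adjusted p = 2.14e-19). HS3ST2, which sulfates heparan sulfate chains, had intensities of 463, 501 and 627 in U937, against 13.1, 13.7 and 11.8 in HL-60, 8.14, 11.2 and 10.2 in THP-1 and 9.99, 11.5 and 10.5 in MOLM-14. The gene was thus bright in U937 and below the array median in all 9 other arrays, and the difference was 4.30 ± 0.091 (SE, adjusted p = 4.74e-24). SERPINE2, an inhibitor of thrombin and other serine proteases, had intensities of 685, 673 and 815 in U937, against 13.8, 18.1 and 15.3 in HL-60, 64.6, 68.7 and 53.1 in THP-1 and 15.9, 15.4 and 12.3 in MOLM-14. Its difference was 4.11 ± 0.069 (SE, adjusted p = 2.02e-26), with THP-1 again the line closest to U937. PDK1, the kinase that shuts down pyruvate dehydrogenase, had intensities of 543, 504 and 393 in U937, against 21, 21.4 and 21.1 in HL-60, 15.1, 11.5 and 10.7 in THP-1 and 16.5, 15.5 and 11.3 in MOLM-14. All 9 other arrays were close to the array median or below it, and the difference was 3.91 ± 0.089 (SE, adjusted p = 2.09e-23).

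**Figure D1:**
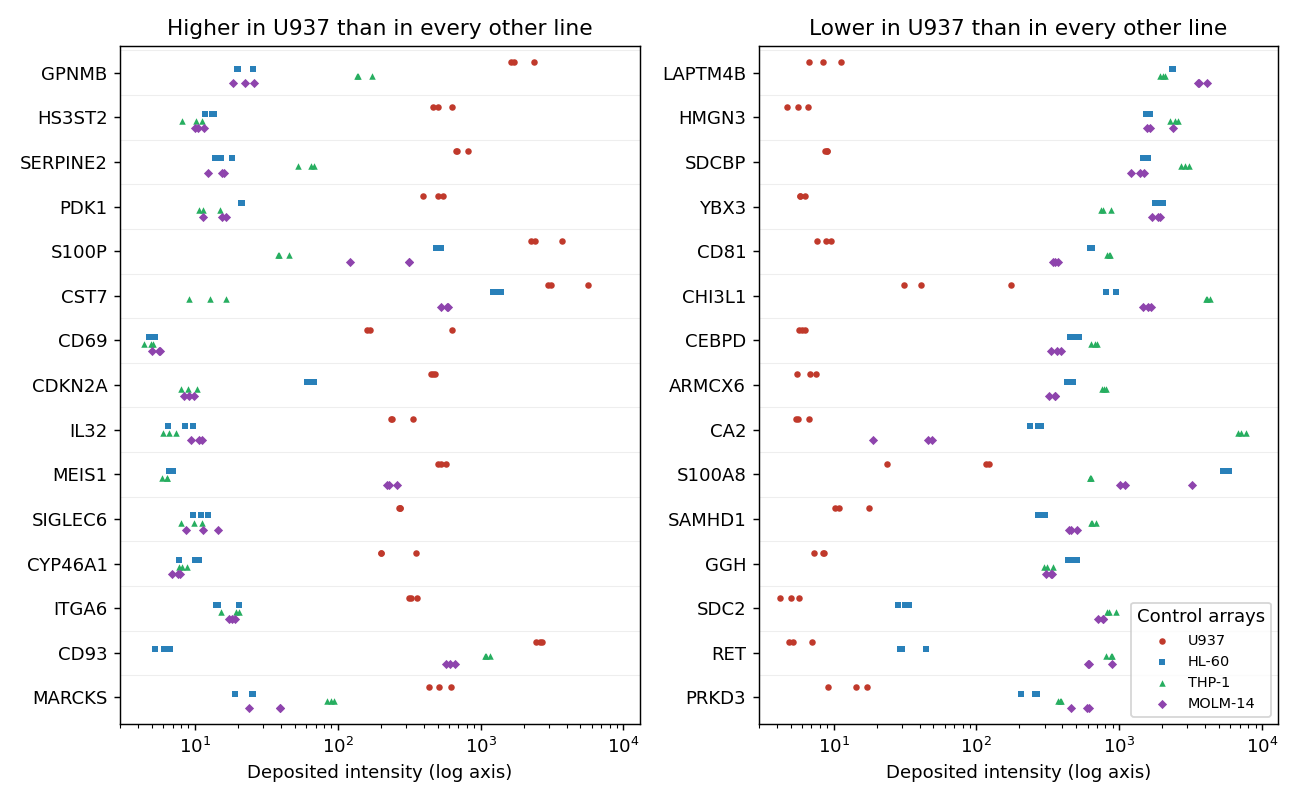
Deposited intensity (log axis) in each of the 12 control arrays for the 15 genes with the largest positive difference (left) and the 15 with the largest negative difference (right), among genes called against every other line. Each point is 1 array. Genes were also chosen for having no overlap, so U937 arrays lie to the right of every other array in the left panel and to the left in the right panel by construction.

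The tumour suppressor locus CDKN2A, which encodes the CDK inhibitor p16 and the MDM2 inhibitor ARF, had intensities of 450.4, 462 and 483 in U937, against 68.5, 61.2 and 63.4 in HL-60, 8.97, 10.4 and 8.0 in THP-1 and 9.07, 8.37 and 9.92 in MOLM-14. HL-60 lay between U937 and the other lines, in which the gene was below the array median. The difference was 3.65 ± 0.038 (SE, adjusted p = 2.84e-31). MEIS1, the homeodomain partner of HOXA proteins, had intensities of 569.8, 504 and 532 in U937, against 6.54, 6.87 and 7.07 in HL-60, 5.92, 6.36 and 6.4 in THP-1 and 229, 221 and 258 in MOLM-14. It was high in U937, at an intermediate level in MOLM-14 and near the lowest values of the arrays in HL-60 and THP-1. The differences were 4.58 from HL-60, 4.59 from THP-1 and 1.08 from MOLM-14, and that from the mean of the lines was 3.42 ± 0.13 (SE, adjusted p = 2.46e-18).

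CD69, an early activation antigen of lymphocytes, read 160.4, 167 and 635 in U937, against 5.23, 4.85 and 4.74 in HL-60, 5.08, 4.91 and 4.39 in THP-1 and 5.01, 5.66 and 5.65 in MOLM-14. U937 replicate 3 had the highest value, and without it the difference of 3.69 ± 0.37 (SE, adjusted p = 2.06e-09) became 3.06. IL32, a cytokine of T and NK cells, read 234, 335 and 242 in U937 and 6.02 to 11.1 over the 9 other arrays, with a difference of 3.52 ± 0.062 (SE, adjusted p = 5.87e-26). SIGLEC6, a sialic acid-binding lectin, read 274, 275 and 268 in U937 and 8.05 to 14.5 in the others (3.41). ITGA6, the integrin chain of laminin receptors, read 317, 324 and 361 in U937 and 14.1 to 20.5 in the others (3.37). The groups did not overlap for any of these genes, as their choice required, and the 3 other lines had values close to each other. CD93, a lectin-like receptor of monocytes and endothelium, showed another pattern, with intensities of 2424, 2590.5 and 2702 in U937, against 5.26, 6.1 and 6.66 in HL-60, 1065, 1096 and 1155 in THP-1 and 614, 577 and 658 in MOLM-14. HL-60 was at the lowest end, while THP-1 and MOLM-14 expressed the gene at a level below that of U937, by 1.19 and 2.00 on the log2 scale.

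CST7, which encodes the cathepsin inhibitor cystatin F, read 2967, 3094 and 5669 in U937, against 1381, 1225 and 1286 in HL-60, 16.6, 9.04 and 12.7 in THP-1 and 589.5, 579.7 and 532 in MOLM-14. Only THP-1 was near the bottom of the scale, and the difference from HL-60, the nearest line, was 1.52. S100P, a calcium-binding protein, read 2422, 2245 and 3693 in U937, against 510.4, 489 and 530.0 in HL-60, 38.9, 37.9 and 45.7 in THP-1 and 316, 315 and 123 in MOLM-14. The differences were 2.36 from HL-60, 5.62 from THP-1 and 3.41 from MOLM-14. MARCKS, an actin- and membrane-binding substrate of protein kinase C, read 514, 624 and 434 in U937 and 19.1 to 93.7 in the other arrays (3.15). CYP46A1, the hydroxylase that starts the removal of cholesterol from neurons, read 201, 201 and 355 in U937 and 6.9 to 10.7 in the others, a difference of 3.39 ± 0.16 (SE, adjusted p = 4.48e-16).

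Among the genes lowest in U937, the most extreme were near the bottom of the intensity scale in U937 and bright elsewhere. LAPTM4B, a membrane protein of lysosomes, had intensities of 11.2, 8.44 and 6.76 in U937, against 2396, 2375 and 2348 in HL-60, 2039, 2108 and 1923 in THP-1 and 3553, 3628 and 4118 in MOLM-14. The groups were far apart, and the difference was -6.71 ± 0.057 (SE, adjusted p = 4.11e-33). HMGN3, a protein that binds nucleosomes, had intensities of 5.63, 4.72 and 6.58 in U937, against 1545, 1651 and 1587 in HL-60, 2592, 2460.1 and 2268 in THP-1 and 1631, 1559 and 2382 in MOLM-14. The difference was -6.48 ± 0.14 (SE, adjusted p = 4.74e-24). SDCBP, or syntenin, an adaptor for the cytoplasmic tails of syndecans, had intensities of 8.66, 8.96 and 8.94 in U937, against 1601, 1478 and 1531 in HL-60, 3104, 2728 and 2909 in THP-1 and 1407, 1502 and 1217 in MOLM-14. The difference was -6.20 ± 0.086 (SE, adjusted p = 2.76e-28), and a syndecan, SDC2, was also below every other line, at 4.19, 5.07 and 5.75 in U937 and 28.2 to 946 in the others (-3.96). In SDC2 the other lines were unlike each other, with HL-60 at 31.1 ± 2.7 and THP-1 at 874 ± 63.6 (SD, n = 3 each). YBX3, a cold-shock domain protein that binds RNA and DNA, had intensities of 5.86, 6.28 and 5.79 in U937, against 1974, 2031 and 1776 in HL-60, 873, 765 and 743 in THP-1 and 1932, 1865 and 1708 in MOLM-14, with a difference of -6.01 ± 0.061 (SE, adjusted p = 1.77e-31).

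The tetraspanin CD81 read 7.61, 8.82 and 9.64 in U937 and 345 to 861 in the other arrays, a difference of -4.58 ± 0.044 (SE, adjusted p = 6.96e-32). The armadillo-repeat gene ARMCX6 read 7.6, 6.83 and 5.59 in U937 and 322 to 804 in the others (-4.49). SAMHD1, the enzyme that degrades deoxynucleotides and restricts retroviruses in myeloid cells, read 10.3, 11 and 17.8 in U937, against 291, 269.9 and 304 in HL-60, 684, 644 and 635 in THP-1 and 463, 503 and 448 in MOLM-14. It was below the array median in U937 and clearly above it in each other line, with a difference of -3.98 ± 0.11 (SE, adjusted p = 2.42e-21). GGH, the hydrolase that trims the glutamate tail of folates and antifolates, read 8.64, 8.48 and 7.34 in U937 and 298 to 505 in the others (-3.97). PRKD3, a protein kinase D, read 14.3, 17.2 and 9.11 in U937 and 205 to 617 in the others (-3.72). For these 5 genes no other line was near U937. RET, a receptor tyrosine kinase, and CA2, a carbonic anhydrase, were below every other line by unequal amounts. RET differed by -1.29 from HL-60, -5.32 from THP-1 and -5.05 from MOLM-14, and CA2 by -3.68 from HL-60, -8.38 from THP-1 and -1.24 from MOLM-14.

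Promoter sequences are shown for 4 genes, a pair below and a pair above every other line, since their levels separate U937 from every other line and their starts differ in CG dinucleotides and TATA motifs. The 120 bases before the annotated start were taken from RefSeq (GRCh38.p14) and are written 5′ to 3′ on the gene's strand. Capitals mark each CG dinucleotide and each match to TATAAA. The windows are chr6:79234683-79234802 (minus strand), chr12:10723324-10723443 (minus strand), chr16:22814042-22814161 (plus strand) and chr4:6693758-6693877 (plus strand).
HMGN3: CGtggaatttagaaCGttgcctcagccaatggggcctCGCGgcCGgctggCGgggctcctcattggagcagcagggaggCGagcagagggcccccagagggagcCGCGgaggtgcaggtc
YBX3: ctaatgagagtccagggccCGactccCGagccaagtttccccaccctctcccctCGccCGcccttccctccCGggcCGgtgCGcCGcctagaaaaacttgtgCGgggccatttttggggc
HS3ST2: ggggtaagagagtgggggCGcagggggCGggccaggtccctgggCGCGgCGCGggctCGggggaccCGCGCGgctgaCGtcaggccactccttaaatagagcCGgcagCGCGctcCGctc
S100P: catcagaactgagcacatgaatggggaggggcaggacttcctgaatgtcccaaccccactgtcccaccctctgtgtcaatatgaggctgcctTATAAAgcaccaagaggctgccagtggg
HMGN3, YBX3 and HS3ST2 had 9, 9 and 15 CG dinucleotides in these windows, while S100P had none and had a TATAAA that begins 28 bases before the start. Over the whole 250 bases before the start, HMGN3, YBX3, HS3ST2 and S100P had 18, 26, 21 and 4 CG dinucleotides, against a median of 19 over the genes tested, of which 79.8% had an entry, and of 11 over the 27305 promoters of the table. TATAAA was looked for on both strands of the same 250 bases. It was present in 11.1% of those 27305 promoters and in 8.04% of the genes tested that had an entry. No conclusion is drawn on CG content or TATAAA of the gene sets. A promoter entry existed for only 77.5% of the genes above and 75.2% of those below every other line.

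A further description, chosen after the values were seen, took genes that were below their own array's median in all U937 control arrays and at 100 or more in all 9 others, or the reverse. Of 12143 genes, 8 were bright in U937 only (0.0659%) and 25 were dim in U937 only (0.206%). The bright ones were HS3ST2, CD69, IL32, SIGLEC6 and CYP46A1, described above, with GALNT14, an enzyme that starts mucin-type O-glycans, WFDC1, a protease inhibitor-like secreted protein, and CCN3, a matrix-associated signalling protein. GALNT14 ranged from 217 to 272 in U937 and from 11.3 to 15.1 in the others, and CCN3 from 111 to 151 in U937 and from 4.43 to 8.42 in the others. Among the 25 dim genes were PRKCA, a protein kinase C, at 9.95 to 11.7 in U937 and 159 to 425 in the others, and the Wilms tumour transcription factor WT1, at 5.70 to 10.2 in U937 and 101 to 373 in the others. The corepressor NRIP1 was at 5.75 to 7.38 in U937 and 115 to 259 in the others, and the oxidation resistance gene OXR1 at 5.33 to 7.08 in U937 and 139.6 to 265 in the others. The chromatin remodeller CHD7 was at 8.60 to 11.6 in U937 and 139.9 to 271 in the others. In the hairpin arrays 6 of the 8 and 19 of the 25 genes met the same definition.

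More monocyte and macrophage genes were lower than higher in U937. Of 43 measured, 12 were lower than the mean of the other lines, 1 was higher and 30 were not called, so that 30.2% were called against 7.07% of all genes tested. The median was -0.33 against -0.008 over all genes. The share of called members is given below in the same way for each list, to be set against that 7.07%. The calprotectin subunit S100A8 read 122, 117 and 23.7 in U937, against 5864, 5366 and 5316 in HL-60, 635, 624 and 624 in THP-1 and 1006, 1103 and 3228 in MOLM-14. U937 lay below all others, with replicate 3 the lowest, and the difference of -4.31 ± 0.53 (SE, adjusted p = 8.23e-08) became -3.72 without that array. Its partner S100A9 read 77.8, 67.2 and 16.3 in U937 and 124 to 1352 in the others (-2.50). The chitinase-like glycoprotein CHI3L1 read 31, 40.9 and 174 in U937, against 956, 802 and 943 in HL-60, 4286, 4057 and 4106 in THP-1 and 1462, 1593 and 1659 in MOLM-14, with U937 replicate 3 above the other U937 arrays. Its difference was -4.52 ± 0.33 (SE, adjusted p = 4.52e-12), and -5.14 without that array. CCR2, the receptor for the monocyte chemokine CCL2, read 9.13, 11.9 and 11.7 in U937, against 162, 174 and 169.7 in HL-60, 939, 983 and 1020.3 in THP-1 and 169, 172 and 135 in MOLM-14, a difference of -3.56 ± 0.12 (SE, adjusted p = 2.34e-19) with no overlap. CD14 was called lower (-1.30), but this rested on HL-60, from which it differed by -3.54, against -0.28 from THP-1 and -0.10 from MOLM-14. CSF1R (-0.43) and ITGAM (-0.33) differed by less than 2-fold. The adaptor TYROBP, which couples activating receptors of myeloid cells, was at 159 ± 15.3 in U937, 739 ± 45.9 in HL-60, 1169.5 ± 18.8 in THP-1 and 320.1 ± 5.36 in MOLM-14 (SD, n = 3 each), and FCGR1A was lower in U937 than in every other line (-1.82).

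**Figure D2:**
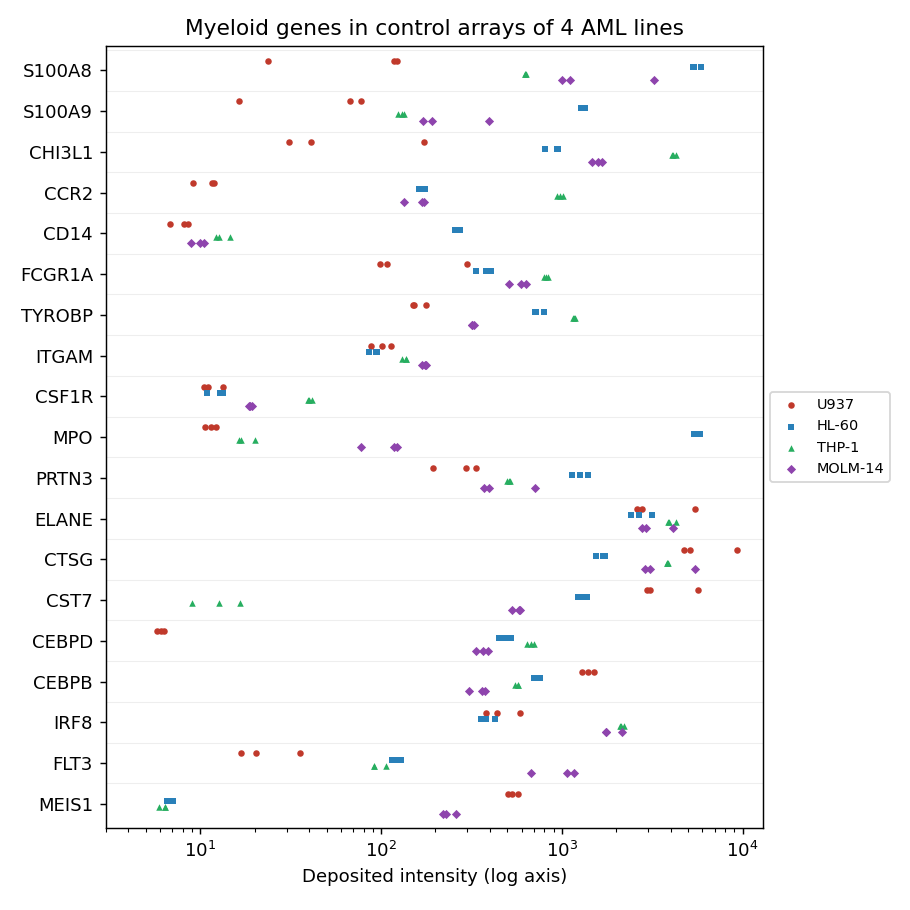
Deposited intensity (log axis) of 19 myeloid genes in the 12 control arrays, with 1 point per array and U937 above the other lines in each gene's band. S100A8, CHI3L1, CCR2 and CEBPD are lowest in U937, CST7, CEBPB and MEIS1 are highest in U937, and MPO is by far highest in HL-60.

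The granule proteins divided. Of 13 primary granule proteins measured, 2 were higher in U937, 4 were lower and 7 were not called (46.2% called, median -0.38), and without U937 replicate 3 the counts were 1 higher and 5 lower. CST7, described above, was among the higher. Myeloperoxidase, MPO, read 11.4, 12.3 and 10.6 in U937, against 5827, 5542 and 5357 in HL-60, 16.7, 16.3 and 20.1 in THP-1 and 118, 123 and 77.8 in MOLM-14. The gene was dim in U937, by far brightest in HL-60 and at a level between them in MOLM-14. Its difference of -3.35 ± 0.10 (SE, adjusted p = 3.23e-21) was made up of -7.65 from HL-60, -0.25 from THP-1 and -2.14 from MOLM-14. The proteinase gene PRTN3 read 194, 296 and 335 in U937, against 1399, 1131 and 1259 in HL-60, 513, 501 and 515 in THP-1 and 372, 394 and 709 in MOLM-14, and its difference was -1.29 ± 0.27 (SE, adjusted p = 1.74e-04). Cathepsin G, CTSG, read 5122, 4747 and 9321 in U937, against 1696, 1550.3 and 1731 in HL-60, 3815, 3812 and 3851 in THP-1 and 2877, 3059.8 and 5435 in MOLM-14. U937 overlapped MOLM-14, and the difference of 1.07 ± 0.28 (SE, adjusted p = 0.00214) fell to 0.78 without U937 replicate 3, below the 2-fold limit. Neutrophil elastase, ELANE, read 2611, 2788 and 5420.5 in U937 and 2417 to 4284 in the other arrays (0.04, adjusted p = 0.922). The granulocytic marker AZU1 was lower by less than 2-fold (-0.79, limma adjusted p = 0.0441), and by -1.28 without U937 replicate 3. It was above HL-60 (1.24) and below THP-1 (-1.86) and MOLM-14 (-1.75). PRG2, the eosinophil major basic protein, was at 13.3 ± 0.91 in U937 and 1500.2 ± 67 in HL-60, the one line in which it was high. Of 19 neutrophil and secondary granule genes, 1 was called (5.26%, against 7.07% of all genes), haptoglobin (-1.07), which was lower and also high in HL-60 alone.

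Among 36 myeloid transcription factors, 3 were higher and 3 lower in U937 (16.7% called, median -0.04), and the largest difference in each direction lay within the C/EBP family. CEBPD, an inducible member, read 5.76, 6.32 and 6.05 in U937, against 487, 526 and 451 in HL-60, 702, 638 and 673 in THP-1 and 336, 389 and 368 in MOLM-14. It was at the floor of the intensity scale in U937 only, with a difference of -4.51 ± 0.075 (SE, adjusted p = 1.43e-26). CEBPB, which acts in monocyte and emergency granulocyte differentiation, read 1388, 1299 and 1516 in U937, against 739, 758 and 698 in HL-60, 576, 571 and 548 in THP-1 and 359.9, 375 and 306 in MOLM-14. U937 was highest without overlap, by 1.36 ± 0.12 (SE, adjusted p = 1.99e-10), although less than 2-fold from HL-60 (0.89). CEBPA, the master regulator of granulocyte fate, was lower by less than 2-fold (1249 ± 115 in U937, 2093 ± 88 in HL-60, 2326 ± 208 in THP-1 and 2005 ± 246 in MOLM-14). IRF8, a factor of monocyte and dendritic cell fate, grouped U937 with HL-60, at 469 ± 107 and 389 ± 34.8, apart from THP-1 at 2137 ± 59.4 and MOLM-14 at 1890.0 ± 238. KLF2 was lower (-1.17). SPI1, read by a probe set near the array median in all 4 lines, differed by -0.08 (adjusted p = 0.279).

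Of 10 measured HOXA cluster genes and partners, 1 was higher and 2 were lower in U937 (30% called). MEIS1 was the higher one. PBX3, another HOX cofactor, and MEF2C, a factor of leukemic progenitors, were lower than the mean but not than every line. PBX3 was at 125 ± 4.77 in U937, 57.2 ± 4.74 in HL-60, 1194 ± 80.5 in THP-1 and 691 ± 58.1 in MOLM-14. MEF2C was at 73.7 ± 9.14 in U937, 25 ± 6.96 in HL-60, 1230.2 ± 21.6 in THP-1 and 909 ± 133 in MOLM-14. In both, U937 lay above HL-60 and below THP-1 and MOLM-14. HOXA5, HOXA9 and HOXA10 were not analysed here. Of 22 stem and progenitor genes, 3 were higher and none lower (13.6% called). They were the pseudokinase TRIB2, which degrades C/EBP alpha (2.12 ± 0.11 SE, adjusted p = 3.65e-15), the Polycomb protein BMI1 (1.65, with 3.53 from HL-60, 1.00 from THP-1 and 0.42 from MOLM-14) and the transcription factor LYL1 (1.06, and 0.84 without U937 replicate 3). Of the genes of the fusions named above, PICALM (-0.12), KMT2A (-0.55) and MLLT3 (-0.62) differed by less than 2-fold. MLLT10 had no settled direction. The brightest of its 5 probe sets, with a mean intensity of 66.7 over the control arrays, differed by 0.47, a second one of 58.6 by -1.14 (limma adjusted p = 9.87e-09), and the mean over its probe sets by -0.13. A second PICALM probe set, of lower intensity, gave 0.65. KIT (-0.29) was below the array median in U937.

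Of 35 cytokine and growth factor receptors, 5 were higher and 1 was lower in U937 (17.1% called, median -0.01). FLT3, a receptor of progenitor cells, read 16.7, 20.2 and 35.6 in U937, against 124, 115 and 129 in HL-60, 91.3, 107 and 91.1 in THP-1 and 1074, 1175 and 672 in MOLM-14. It was lowest in U937 and highest in MOLM-14, and the differences were -1.84 from HL-60, -1.47 from THP-1 and -4.66 from MOLM-14. TYRO3, a receptor kinase that recognises dying cells, was at 159 ± 39.2 in U937 and at 13.5 ± 1.78 in HL-60, 24.2 ± 2.63 in THP-1 and 11.3 ± 1.29 in MOLM-14 (2.42 ± 0.090 SE, adjusted p = 1.52e-18). IL2RG, the receptor chain shared by several lymphoid cytokines, read 96.2, 132 and 168 in U937 and 10.0 to 21.7 over the other arrays (2.27). IL18R1, a receptor chain for interleukin-18, read 85.4, 60.5 and 80.7 in U937 and 4.77 to 7.02 over the others (2.06). Both were higher than in every other line. Of 28 integrins and adhesion genes, 5 were higher and 2 lower (25% called), and besides ITGA6 and CD93 these included the hyaluronan receptor CD44 (1.56) and the adhesion ligand ICAM1, at 133 ± 8.56 in U937, 14.1 ± 1.68 in HL-60, 15.7 ± 0.29 in THP-1 and 90.4 ± 11.9 in MOLM-14. Of 30 chemokines and receptors, 1 was higher and 3 were lower (13.3% called). The higher one, CCL2, attracts monocytes and is the ligand of CCR2. It read 841, 837 and 170.3 in U937, against 477, 461 and 612 in HL-60, 19.1, 15.7 and 28.6 in THP-1 and 16.1, 22.9 and 17.8 in MOLM-14. U937 and HL-60 were both high and overlapped through U937 replicate 3 alone, which lay below HL-60 while the other U937 arrays lay above it (-0.07 from HL-60 over all arrays). The difference from the mean of the lines was 2.53, and 3.24 without that array. The receptors CCR1 (-1.68) and CX3CR1 (-1.01) were lower on the mean, and CX3CR1 was above HL-60 (1.65). The CX3CR1 difference lay at the 2-fold limit and fell short of it in 12 of 29 alternative settings, with values from -2.34 to -0.17.

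**Figure D3:**
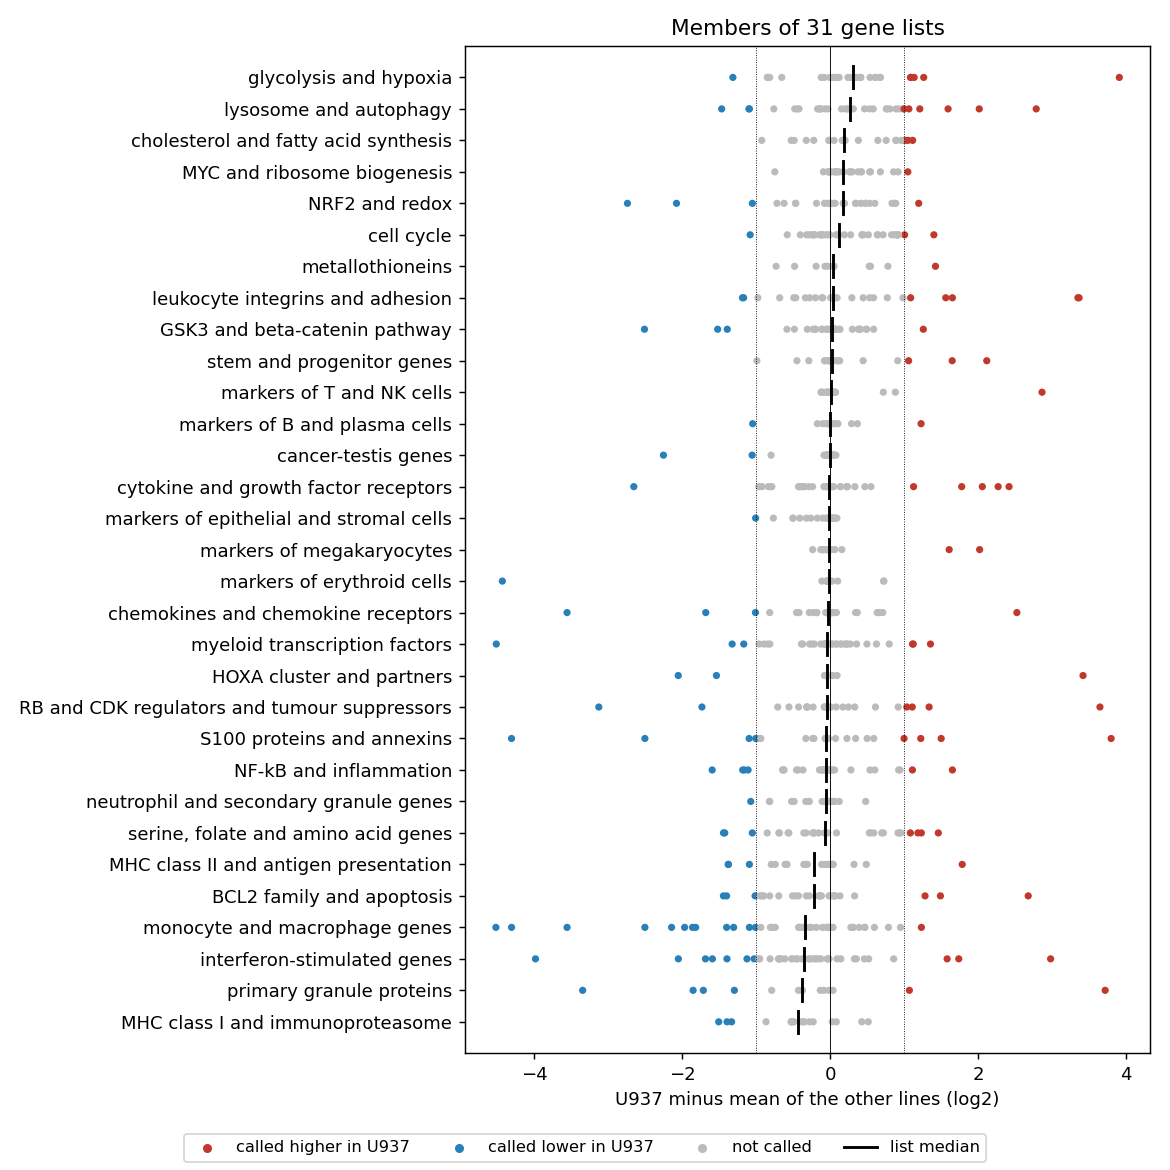
Difference between U937 and the mean of the other lines (log2, control arrays) for the measured members of 31 gene lists, ordered by the list median (black bar). Red and blue points passed the test and the 2-fold limit (dotted lines), and grey points did not. Medians run from -0.44 for MHC class I genes to 0.31 for glycolysis genes.

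The antigen presentation and interferon lists had medians below 0 and more lower than higher genes. Of 18 MHC class I and immunoproteasome genes, 3 were lower, none was higher (16.7% called) and the median was -0.44. PSMB10, an inducible subunit of the proteasome, was below every other line, at 217 ± 12.6 in U937, 545 ± 28.7 in HL-60, 635 ± 5.4 in THP-1 and 509 ± 27.5 in MOLM-14 (-1.33 ± 0.056 SE, adjusted p = 2.95e-17). The peptide-trimming enzymes ERAP1 (-1.51) and ERAP2 (-1.39) were lower on the mean only, U937 being above HL-60 for ERAP1 (0.75) and close to THP-1 for ERAP2 (0.01). A further ERAP1 probe set gave the opposite sign, 1.16. Of 22 MHC class II genes, 3 were lower and 1 was higher (18.2% called, median -0.21). HLA-DRB1 grouped U937 with HL-60 (51.5 ± 28.1 and 37.8 ± 6.51) below THP-1 and MOLM-14 (364 ± 44.8 and 194 ± 56.2), while the lysosomal thiol reductase IFI30 was higher (1.79).

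Of 41 interferon-stimulated genes, 7 were lower and 3 higher (24.4% called, median -0.35). SAMHD1 was lower than in every line, and XAF1, an antagonist of the apoptosis inhibitor XIAP, differed by -0.37 from HL-60, -2.99 from THP-1 and -2.79 from MOLM-14. MX2, a dynamin-like restriction factor of retroviruses, read 474, 459.8 and 483 in U937, against 18.4, 25.1 and 17.7 in HL-60, 186, 178 and 187 in THP-1 and 17.6, 10.3 and 14.5 in MOLM-14. It was highest in U937 without overlap, by 2.98 ± 0.084 (SE, adjusted p = 2.42e-21). IFITM2, which blocks virus entry, was higher on the mean (1.74) but close to THP-1 (0.27). The list thus held called genes of both signs. Of 30 NF-kB and inflammation genes, 4 were lower and 2 higher (20% called, median -0.06). TNF was at 29.5 ± 7.98 in U937, 219.8 ± 30.0 in HL-60, 18.9 ± 5.57 in THP-1 and 290.2 ± 15.1 in MOLM-14, so that U937 and THP-1 were the low lines. The deubiquitinase TNFAIP3 was likewise low in U937 and THP-1, with differences of -1.42 from HL-60, -0.18 from THP-1 and -1.94 from MOLM-14. TNFAIP6 was called lower (-1.16), which rested on HL-60 (-3.52).

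Among genes of growth control, CDKN2A was higher in U937 and WT1 lower. Of 24 RB, CDK and tumour suppressor genes, 4 were higher and 2 lower (25% called, median -0.04). Cyclin D2, CCND2, was called higher on the mean (1.34), which rested on THP-1, from which it differed by 5.23. It differed by -0.34 from HL-60 and -0.88 from MOLM-14. WT1 was below every other line (-3.13 ± 0.085 SE, adjusted p = 1.11e-21). CDKN1A, the p21 inhibitor of CDKs, read 29.3, 28.3 and 26.3 in U937, against 17.7, 15.1 and 21.9 in HL-60, 91.2, 97.7 and 116 in THP-1 and 673, 661 and 883 in MOLM-14. MOLM-14 was far above the others, U937 differed by 0.31 from HL-60, and the difference from the mean was -1.73 ± 0.12 (SE, adjusted p = 5.92e-13). Outside the list of 24, the RNA-binding zinc-finger gene ZMAT3, the stress gene GADD45A and SESN1, a sestrin, were also lower. ZMAT3 (-1.39 from HL-60, -1.11 from THP-1 and -2.76 from MOLM-14) and GADD45A (-1.14 from HL-60, -1.55 from THP-1 and -1.24 from MOLM-14) were below every other line. SESN1 was lower on the mean (-1.46).

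Of 38 cell cycle genes, 2 were higher and 1 was lower (7.89% called, against 7.07% of all genes, median 0.11). Without U937 replicate 3 these counts were 8 and 0, with a median of 0.32. TPX2, a spindle assembly factor, was at 1656 ± 317 in U937 and was higher than in every other line (1.40 ± 0.13 SE, adjusted p = 4.11e-10). The kinesin KIF23 was higher (1.01, and under 2-fold in 7 of 29 settings) and survivin, BIRC5, lower (-1.08, and -0.89 without U937 replicate 3). Further BIRC5 probe sets gave -0.67 and -0.78. Of 26 genes of MYC and ribosome biogenesis, 1 was higher, which is 3.85% called against 7.07% of all genes, and the median was 0.18. It was NOP56 of the small nucleolar ribonucleoprotein (1.05), for which a second probe set gave 0.32. MYC itself was at 4452 ± 1021 in U937, 7667 ± 328 in HL-60, 1452 ± 28.9 in THP-1 and 4241 ± 823 in MOLM-14. U937 was close to MOLM-14 (0.09), and the difference from the mean was 0.26 ± 0.18 (SE, adjusted p = 0.262).

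Of 28 BCL2 family and apoptosis genes, 3 were higher and 3 lower (21.4% called, median -0.22), and 3 and 5 without U937 replicate 3. The anti-apoptotic gene BCL2A1 read 776, 750.4 and 485 in U937, against 391, 398 and 373 in HL-60, 8.06, 5.6 and 5.76 in THP-1 and 109, 107 and 85.6 in MOLM-14. It was highest in U937, next in HL-60 and near the lowest values in THP-1, with a difference of 2.68 ± 0.16 (SE, adjusted p = 1.12e-13). The effector caspase gene CASP6 was above every other line (1.49) and the inflammatory caspase gene CASP1 below (-1.40). A second CASP6 probe set gave 0.63 against the mean of the lines. The caspase-8 inhibitor CFLAR was lower (-1.44), though by less than 2-fold on several further probe sets.

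Of 34 lysosome and autophagy genes, 6 were higher and 3 lower in U937 (26.5% called, median 0.27). The aminopeptidase cathepsin H, CTSH, read 581, 559 and 743 in U937, against 27, 35 and 30.3 in HL-60, 215, 285 and 260.0 in THP-1 and 37.9, 43 and 44.8 in MOLM-14. U937 was highest without overlap, with THP-1 nearest, and the difference was 2.79 ± 0.10 (SE, adjusted p = 3.26e-19). The aspartic protease cathepsin D, CTSD, read 315, 423 and 483 in U937 and 28.3 to 165 in the others (2.02 ± 0.14 SE, adjusted p = 2.09e-12). The cysteine protease CTSL was lower (-1.47), and NPC2, which carries cholesterol out of lysosomes, was higher on the mean (1.6) but close to THP-1 (0.16). LAPTM4B and GPNMB, both lysosomal membrane proteins, were at opposite ends of the comparison.

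Of 30 glycolysis and hypoxia genes, 5 were higher and 1 lower (20% called, median 0.31). Besides PDK1 these included enzymes of the first steps, hexokinase HK1 at 363, 321 and 279 in U937 and 69.4 to 174 over the other arrays (1.27 ± 0.16 SE, adjusted p = 2.19e-07), and the isomerase GPI (1.14). DDIT4, an inhibitor of mTOR signalling, was called lower (-1.31), which rested on MOLM-14 (-3.49). Of 21 cholesterol and fatty acid synthesis genes, 3 were higher and none lower (14.3% called, median 0.19), 6 were higher without U937 replicate 3, and 1 was higher and 1 lower in the hairpin arrays described below. They were the sterol reductase DHCR7 (1.12), lanosterol synthase LSS (1.05) and the desaturase FADS1 (1.01, and under 2-fold in 8 of 29 settings). FADS1 was close to THP-1 (0.08), and DHCR7 differed by 0.38 from HL-60. A second DHCR7 probe set gave 0.77 against the mean of the lines, under the 2-fold limit. Of 29 serine, folate and amino acid genes, 4 were higher and 3 lower (24.1% called, median -0.08), and 3 and 5 without U937 replicate 3. The proline synthesis enzymes differed in opposite directions, with ALDH18A1, which acts at the start of the route, higher (1.23) and PYCR1, which acts at its end, below every other line (-1.44). Cystathionine gamma-lyase, CTH, was higher on the mean (1.46), but U937 overlapped MOLM-14, from which it differed by 0.74. Asparagine synthetase, ASNS, was lower (-1.42), at 126.5, 109 and 305 in U937. Between the control arrays of plate columns 7 to 11 alone the ASNS difference was -0.35. Of 29 NRF2 and redox genes (13.8% called), 1 was higher, GSTP1 (1.20), and 3 were lower, among them malic enzyme ME1 (-2.17 from HL-60, -3.88 from THP-1 and -2.18 from MOLM-14), GSTM3 (-2.08, mainly from THP-1) and the cystine carrier SLC7A11 (-1.05).

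Of 22 S100 proteins and annexins, 4 were higher and 4 lower (36.4% called, median -0.05), with S100P and annexin ANXA2 (1.5) among the higher and S100A8 and S100A9 among the lower. ANXA2 differed by 2.78 from HL-60, 0.83 from THP-1 and 0.90 from MOLM-14. U937 replicate 3 (1031) lay within the MOLM-14 range of 735 to 1067. Of 12 metallothioneins, 1 was higher (8.33% called), MT1G (1.43). Of 38 cancer-testis genes, 2 were lower and none higher (5.26% called, against 7.07% of all genes), and PRAME was at 17 ± 0.61 in U937 and 16.8 ± 3.79 in MOLM-14, below 354 ± 30.0 in HL-60 and 320.1 ± 25 in THP-1. MAGEB2 was high in THP-1 alone (7.63 ± 0.71 in U937, against 181 ± 24.4 in THP-1). Of 30 genes of GSK3 and beta-catenin signalling, 1 was higher and 3 were lower (13.3% called, median 0.03), and these included 3 Groucho corepressors. TLE1 (-1.59 from HL-60, -3.85 from THP-1 and -2.09 from MOLM-14) and TLE4 (-1.41 from HL-60, -1.69 from THP-1 and -1.07 from MOLM-14) were below every other line, and TLE3 (1.58 from HL-60, 1.05 from THP-1 and 1.15 from MOLM-14) was above. Further, dimmer TLE3 probe sets gave 0.94 and 0.69 against the mean of the lines, and those of TLE4 gave -0.23 and -0.61. The receptor FZD6 was lower on the mean (-1.52) and close to HL-60 (-0.01). For the kinases that the hairpins target, GSK3A was at 44.5 ± 4.4 in U937 with a difference of -0.04 ± 0.047 (SE, adjusted p = 0.565) and GSK3B was at 167 ± 6.0 with -0.11 ± 0.082 (SE, adjusted p = 0.309). The differences from the single lines ran from -0.30 to 0.23 for GSK3A and from -0.19 to 0.02 for GSK3B.

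CDKN2A, SIGLEC6, IFITM2, ANXA2, MT1G, HLA-DRB1, CFLAR, KRT18 and ZNF44 were read by probe sets that the array's maker marks as able to bind transcripts of related genes. So were the markers CD163, HBB, PF4, GP9, MS4A1, KRT8, COL1A1 and COL3A1. The share of such signal was not tested.

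The lists of markers of other blood and tissue cells had between 4.17% and 11.8% of their genes called, against 7.07% of all genes. Of 24 T and NK cell markers, 1 was higher in U937, the granule membrane protein NKG7, which read 844, 985 and 1128 in U937, against 159, 157 and 140.4 in HL-60, 46.9, 44.5 and 40.9 in THP-1 and 237, 267 and 154 in MOLM-14. It was highest in U937 without overlap (2.87 ± 0.17 SE, adjusted p = 8.01e-14), while CD3D, CD3E, CD2 and GNLY were below the array median in U937. The summed intensity of the 24 markers was 1296 in U937, 405 in HL-60, 304 in THP-1 and 469 in MOLM-14. NKG7 made up most of the U937 sum. Of 17 megakaryocyte markers, 2 were higher in U937 than in every other line, pleckstrin, PLEK, a protein kinase C substrate also present in monocytes (1.61), and clusterin, CLU, a secreted chaperone (2.02). PF4, GP9 and ITGA2B were dim. Of 16 erythroid markers, 1 was lower, CA2. Of 17 B and plasma cell markers, FCER2 was higher (1.23) and CD38 lower (-1.05), and neither was called without U937 replicate 3. Of 24 epithelial and stromal markers, 1 was lower, KRT18, high in MOLM-14 alone (8.2 ± 0.19 in U937, against 170.3 ± 29.3 in MOLM-14), and 2 were lower without U937 replicate 3. EPCAM and COL3A1 had U937 means of 4.74 and 7.07, and KRT8 read 9.24, 10.6 and 10.7 in U937. COL1A1 was at 24.6 ± 2.42 in U937, above the array median, and differed by 0.07 from the mean of the other lines.

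The same difference between lines was measured in arrays that the control comparison does not use, the 8 U937 arrays and the 24 arrays of the other lines infected with hairpins against GSK3A or GSK3B. There, 425 genes (3.49%) were higher and 405 (3.33%) lower in U937. Of the 431 genes higher in the control arrays, 367 (85.2%) were also called higher in the hairpin arrays, which is 86.4% of the 425 found there. Of the 429 lower genes, 376 (87.6%) were called again, 92.8% of the 405, and no gene was called in opposite directions. All 160 genes above and 117 below every other line kept their sign, and 156 and 114 of them were called. Their median differences were 1.73 in hairpin arrays and 1.76 in control arrays for the genes above, and -2.02 and -2.01 for those below. Over all 12165 genes, Pearson's r between the differences in hairpin and in control arrays was 0.985, as a description across genes that share the 4 lines. GPNMB had a lowest, median and highest intensity of 1997, 2938 and 4542 in the 8 U937 hairpin arrays, against 13.1 to 219.8 over the 24 others. LAPTM4B had 6.68, 7.61 and 10.3 in the U937 hairpin arrays and 1755 to 4301 in the others. CDKN2A had 387, 415 and 468 in the U937 hairpin arrays and 7.53 to 78.2 in the others. CHI3L1 had 68.7, 170.3 and 618 in the U937 hairpin arrays and 889 to 5379 in the others, so U937 remained lowest without overlap. No gene passed the test with a 2-fold limit for a difference between the hairpin and the control comparison (0% of 12165), and 15 passed on the adjusted p alone. Of the 154 genes examined by name, MPO alone was among these 15, with -3.35 in control arrays and -2.70 in hairpin arrays (adjusted p = 0.00566 for the difference of 0.65). The largest such difference among the 154 was 0.82, that of CHI3L1, and did not pass (adjusted p = 0.879). List counts shifted as well. In hairpin arrays, 1 cholesterol and fatty acid synthesis gene was higher and 1 lower, with DHCR7 at 0.69 and LSS at 0.92. Of the NF-kB and inflammation genes 2 were higher and 1 lower there, of the lysosome and autophagy genes 7 and 1, and of the S100 proteins and annexins 3 and 2. No gene of MYC and ribosome biogenesis was called there in either direction.

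**Figure D4:**
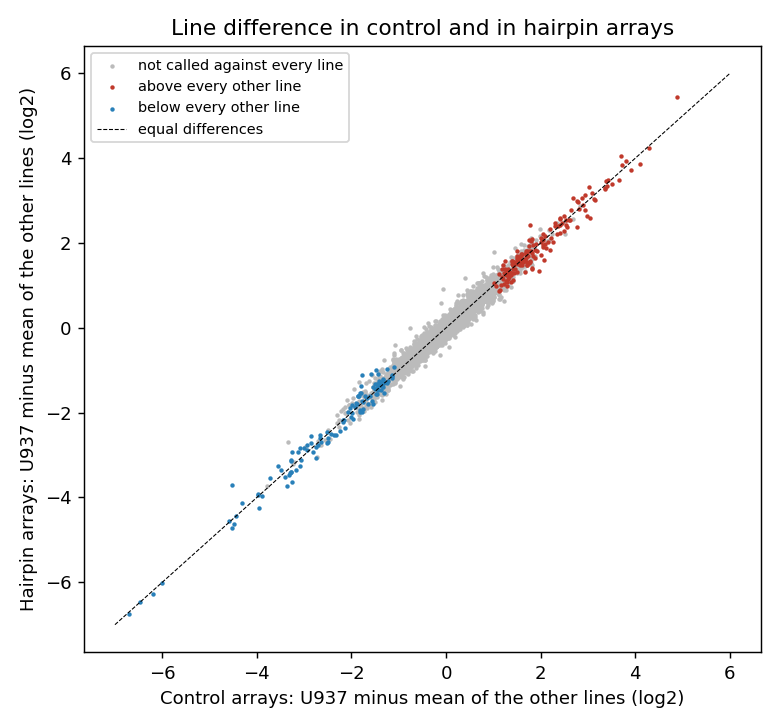
Each point is 1 of 12143 genes, placed by the difference between U937 and the mean of the other lines (log2) in control arrays (horizontal axis) and in hairpin arrays (vertical axis), with the line of equal differences dashed. The 160 genes above every other line in control arrays (red) and the 117 below (blue) lie near that line, and all keep their sign.

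The share of called genes varied between chromosomes, which is given as a description with no test. On chromosome 15, 17 of 374 genes (4.55%) were above every other line and none below, against 1.32% and 0.962% over all genes. Of its genes, 72.7% were higher in U937, at any size of difference. This share was 69.8% on chromosome 20 and 65.0% on chromosome X, and 32.1% to 58.5% on the other chromosomes. The median difference of the chromosome 15 genes was 0.19, the largest of any autosome. The median was 0.34 from HL-60, 0.12 from THP-1 and 0.08 from MOLM-14, and 0.18 in the hairpin arrays. TYRO3, CTSH, TLE3, BCL2A1, KIF23 and ANXA2 are on this chromosome. Chromosome 20, with CD93, CST7, CEBPB, TPX2 and SAMHD1, had a median of 0.08, with 10 of 325 genes (3.08%) above every other line and 3 below. On chromosome 8, 12 of 437 genes (2.75%) were below every other line and 5 above, while the median was -0.02. LAPTM4B, SDCBP, CEBPD, CA2, GGH and SDC2 are among the 12. Chromosomes with fewer genes also had shares of this size, with 8 of 215 genes above (3.72%) and 6 below (2.79%) on chromosome 13 and 5 of 135 above (3.7%) on chromosome 21. On chromosome X, 16 of 475 were above (3.37%) and 3 below, and on chromosome 2, 23 of 774 were above (2.97%) and 5 below. Of the 25 genes dim in U937 only, 6 lie on chromosome 8, which holds 437 of the 12143 genes considered. LAPTM4B, SDCBP, CEBPD and GGH belong both to these 6 and to the 12 chromosome 8 genes below every other line. The counts thus share genes. A run of 3 measured neighbours on chromosome 19 was below every other line, made up of the zinc-finger genes ZNF20 (-1.67 ± 0.068 SE, adjusted p = 1.44e-17), ZNF136 (-1.50 ± 0.11 SE, adjusted p = 1.78e-12) and ZNF44 (-1.56 ± 0.16 SE, adjusted p = 2.41e-09). Zinc-finger genes of such clusters resemble each other, and whether the probe sets share signal was not tested.

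**Figure D5:**
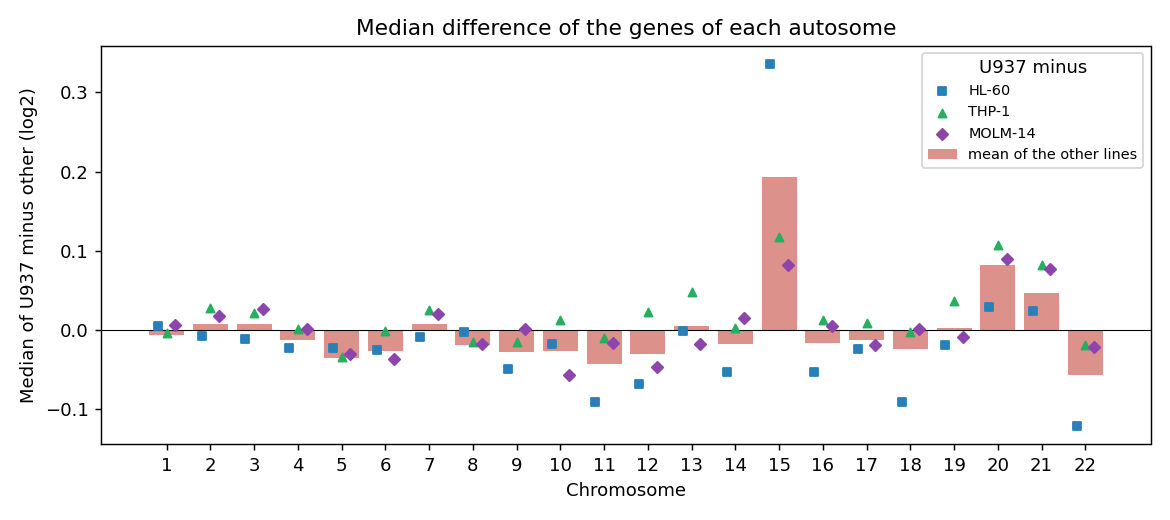
Median difference (log2) of the measured genes of each autosome between U937 and the mean of the other lines (bars) and each other line (symbols), in control arrays. Chromosome 15 has the highest bar, at 0.19, with the HL-60 symbol at 0.34.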

How the data were processed

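RNA of 44 arrays was measured, and the 12 control arrays carry this comparison. The values are intensities that the authors deposited for 22277 probe sets on a linear scale. The submitters' processing notes name RMA and MAS5, and which of them made the table is not given in the sources used here. Intensities became log2(value + 16). Array medians then spanned 0.154, over the limit of 0.1, so arrays were quantile-normalised. GEO's platform annotation names 1 gene for 19724 probe sets, 568 name several, 1923 name none and 62 are control probe sets. The brightest probe set per gene was kept (12165 genes, 4505 with more than 1). Symbols were updated by Entrez identifier for 19707 probe sets.

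The means of all 20 groups of line and hairpin entered 1 fit (limma 3.58.1, R 4.3.3) with 24 residual degrees of freedom. Tests were two-sided and Benjamini-Hochberg adjusted over all genes. Should the replicates be technical, the p-values would reflect no more than that technical spread. An error after ± is a standard error where marked SE and an SD over 3 arrays beside an intensity. The number of arrays limits the precision. Same-numbered control arrays did not deviate together (r from -0.08 to 0.11 over 18 pairs, 2 above 0.1).

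Named genes follow a rule. It takes the 15 higher and 15 lower genes with the largest difference among those called against every other line with no overlap, up to 4 called members of each of 32 lists (796 genes measured), members of chromosomal runs, a fixed set of leukemia genes and the fixed cell type markers. Genes bright or dim in U937 only fall outside it and were chosen after their values were seen. The genes and lists were chosen with earlier results of these data known. Probe sets with several genes were left out. Some genes and 1 list are not reported here. Alternatives tried were other normalisations, pseudocounts, probe-set rules, variance models, a filter on low values, plate columns, single arrays or lines left out and the replicate number as a block. The list counts without U937 replicate 3 were added after seeing the data.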

Additional observations from a re-analysis of the deposited data

How the results depend on the processing

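With a pseudocount of 1, 247 genes were above and 187 below every other line, and 645 were higher in hairpin arrays. With 64, the counts were 214 above and 208 below the mean, 80 above and 60 below every line, 479 from HL-60, 863 from THP-1, 621 from MOLM-14, and 222 higher and 190 lower in hairpin arrays. On the adjusted p alone they were 2762 and 2925, 929 and 808, 5370, 5858, 5192, and 3327 and 3697. Without HL-60, 286 genes were above and 302 below every remaining line. Without THP-1, 270 were above, and without MOLM-14, 181 were below. By construction, fewer lines have to be passed. PRG2 became 0.04 and TNFAIP6 0.023 without HL-60, and CCND2 became -0.61 without THP-1. Leaving out single control arrays gave 425 to 450 above and 413 to 451 below the mean, 157 to 173 above and 114 to 138 below every line, 906 to 933 from HL-60, 1495 to 1571 from THP-1 and 1106 to 1164 from MOLM-14. Leaving out a replicate number gave 462 to 488 higher and 419 to 435 lower in hairpin arrays. The replicate number as a block gave 431 above and 429 below the mean, 160 above and 118 below every line, 912, 1510 and 1112 from the single lines and 425 and 405 in hairpin arrays, and changed no call among 154 named genes. The other normalisations each took 1 named gene below the limit, the mean over probe sets 17 and a pseudocount of 64 took 32, in no case with a change of sign. For the 30 genes with the largest differences, 855 of 870 values counted as unchanged, and no value changed sign. The other 15 came from plate columns 7 to 11 alone, where there is no test and no call. A value from these columns counted as unchanged where it lay within 1 SD of the main difference. These genes were chosen for large differences in the same arrays, so their stability was in part set by that choice. Apart from the pseudocounts and lines named, the cause of these shifts was not tested.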
